A study of Mus musculus with 15 samples.

Results

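Rab small GTPases were examined in bulk RNA sequencing libraries from injured mouse cortex. The members were the protein-coding genes of the mouse GRCm38 annotation whose symbol is Rab followed by a number, with at most 1 letter and 1 more digit. Rab3a was left out by that rule. The rule gave 58 genes among the 33223 listed in the count tables, found there by their Ensembl identifiers. Rab15 had been noted from its own genotype values in these libraries, so its knockout values are a description and carry no test.

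The libraries came from ipsilateral cortex taken 1 day after a moderate controlled cortical impact, a mechanical injury to the right parietal cortex that models traumatic brain injury. Dissociated tissue was passed over microbeads against CD45, a surface protein of leukocytes and microglia, and CD31, a surface protein of endothelial cells. RNA was sequenced from the CD45 cells and from the flow-through, which the labels describe as the remaining cortical cells. Every mouse carried floxed EphA4 alleles (EphA4f/f), the WT controls included, and the KO mice also carried VeCadCreERT2, an inducible Cre recombinase under the promoter of VE-cadherin, a gene of endothelium. The labels give all groups the injury, so there is no uninjured group here, and they give neither the age of the mice nor the induction of the Cre. The libraries used were 4 WT and 3 KO of the flow-through and 3 WT and 4 KO of the CD45 fraction. The library labelled flow-through WT replicate 5 was left out, because it stands in the CD45 tables and had 906 CPM (its count scaled to the library total) of Ptprc, the gene for CD45.

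Rab proteins cycle between a GTP-bound form on membranes and a GDP-bound form in the cytosol, and each marks particular compartments of the secretory and endocytic routes. Exchange factors load them with GTP, GTPase activating proteins switch them off, and effectors carry out vesicle tethering, motor transport and fusion. In the brain they are known for synaptic vesicle traffic and axonal transport in neurons, and for phagosome and lysosome handling in microglia and infiltrating leukocytes.

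Total counts were 11574414 to 31337948 per library over the 14 libraries. Levels below are CPM, read counts as a fraction of the library total, scaled by TMM (a scaling that assumes most genes do not differ) over all 14 libraries, unless plain CPM is named. Ptprc lay at 0.559 to 0.995 CPM in the flow-through and at 967 to 1274 CPM in the CD45 libraries. The 14 libraries thus matched the fraction in their labels, while Ptprc does not check the genotype. The 9 neutrophil markers summed to 7.64 to 13.2 CPM in the flow-through, with 1 of 9 at 0 counts, and to 7015 to 13256 CPM in the CD45 libraries. In the CD45 libraries the microglia markers summed to 5000 to 6221 CPM and the monocyte and macrophage markers to 6046 to 11464 CPM. In the flow-through the oligodendrocyte markers summed to 20361 to 34423 CPM and the astrocyte markers to 6170 to 7865 CPM. Red blood cell and platelet markers summed to 8209 to 23211 CPM there. Neuron markers were not absent from the CD45 libraries, where 18 of them summed to 79.9 to 381 CPM against 1010 to 1729 CPM in the flow-through. Sums of different lists do not give shares of cells. The 10 endothelial markers were each higher in the CD45 libraries and summed to 822 to 999 CPM there against 222 to 327 CPM in the flow-through. Epha4 lay at 30.3 to 35.8 CPM in the flow-through and at 1.99 to 4.11 CPM in the CD45 libraries, with KO against WT log2 fold changes of -0.07 (SE 0.09) and -0.17 (SE 0.31). Neither fraction is an endothelial preparation, so the deletion in endothelium is not checked by them.

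Summed together, Rab genes took a larger part of the counts in the CD45 fraction. The 58 genes together held 0.359 to 0.398% of all counts in flow-through libraries (n = 7). In CD45 libraries (n = 7) they held 0.463 to 0.485%, with no overlap. The larger sum does not hold for most members. In the edgeR test described below, run on library totals alone, 21 of 54 members were called higher and 31 lower in the CD45 fraction. The genotypes overlapped within each fraction, at 0.376 to 0.395% in flow-through WT and 0.359 to 0.398% in flow-through KO. Rab7, which directs late endosomes to lysosomes, was the most abundant Rab per exon length in all 14 libraries. Its level was 105 ± 4.37 RPKM (CPM per kilobase of exon, SD, n = 7) in the flow-through and 355 ± 27.9 RPKM (SD, n = 7) in the CD45 fraction.

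The ranks below Rab7 differed between the fractions. In the flow-through the next levels per length were Rab31 at 90.0 ± 3.85 RPKM, Rab10 at 74.9 ± 5.61, Rab5c at 74.5 ± 4.96, Rab2a at 72.2 ± 6.11 and Rab6a at 70.7 ± 4.99 (SD, n = 7). The last 4 of these lay within their SDs of each other, so their order is not resolved. They serve exocytic and recycling traffic (Rab10), early endosomes (Rab5c), transport between the endoplasmic reticulum and the Golgi (Rab2a) and transport at the Golgi (Rab6a). In the CD45 fraction Rab5c followed Rab7 at 197 ± 12.5 RPKM, ahead of Rab20 at 158 ± 47.6, Rab32 at 113 ± 16.2, Rab8b at 112 ± 11.96 and Rab1a at 102 ± 14.3 (SD, n = 7). Rab5c and Rab20 overlapped within their SDs, with Rab20 above Rab5c in WT replicate 3 (250.1 against 172 RPKM), and so did Rab20, Rab32, Rab8b and Rab1a. Rab20 ranked 38 and Rab32 ranked 40 among the 58 in the flow-through, against 3 and 4 in the CD45 fraction.

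The fractions separated most of the family, in both directions. The edgeR quasi-likelihood test over 18098 genes tested 54 of the 58 members, and 24 were higher and 23 lower in the CD45 fraction at an adjusted p under 0.05. Of all genes tested, 86.1% were called, 41.4% higher and 44.7% lower, so the members' count is close to that of genes at large. The median log2 fold change of the 54 was -0.00 against -0.05 over all genes, and the median size was 1.35 against 1.33. In 24 members every CD45 library lay above every flow-through library, in 20 every one lay below, and in 10 the fractions overlapped, while 69.5% of all genes did not overlap. Of the 54, 6 passed the filter on low counts within 1 fraction only, which favours a difference, and Rab26 was the 1 of them not called. Among the 48 members that passed in both fractions on their own, 23 were higher, 19 lower and 6 not called. In these bulk libraries, fewer cells of a type and less RNA per cell cannot be told apart.

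Small differences between the fractions depended on the scaling. With library totals alone, a scaling added after the data were seen, the median of all genes moved by -0.53 on the log2 scale, and 21 members were higher and 31 lower. With upper-quartile scaling that median moved by -0.25, with 23 members higher and 27 lower. Called with 1 sign under all 4 scalings were 44 members, 21 higher and 23 lower. Rab11b, Rab14 and Rab5b, called higher at 0.19, 0.49 and 0.52, were the called members whose sign turned under at least 1 scaling, and Rab21, Rab22a and Rab9, not called, turned sign too. The 16 members described next with values passed in the same direction in all 23 alternative analyses.

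**Figure D1:**
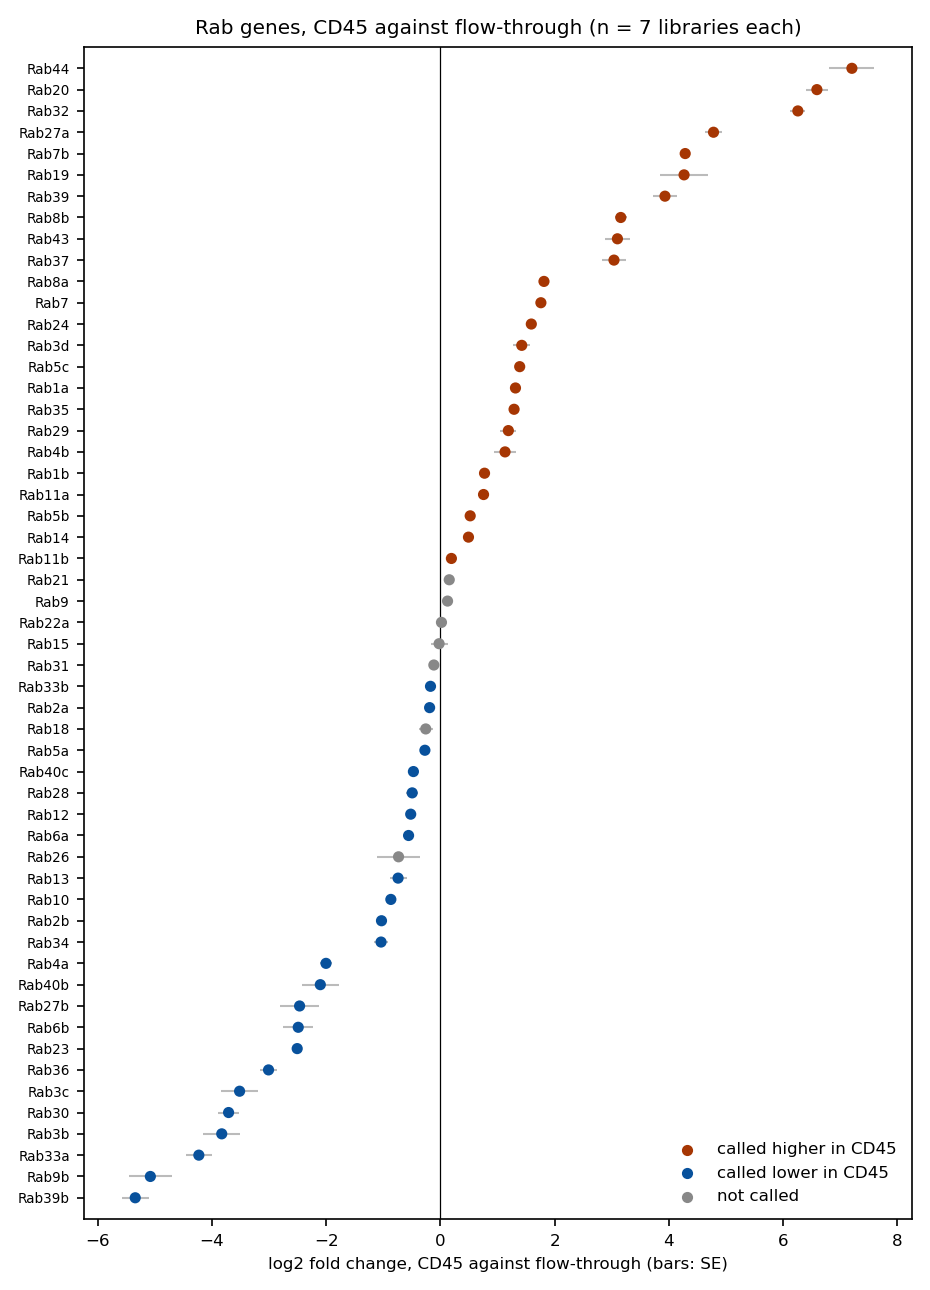
Log2 fold change of the 54 tested Rab genes, CD45 against flow-through (x axis), 1 gene a row, bars giving the SE, 7 libraries per fraction. Values run from -5.34 for Rab39b to 7.20 for Rab44, with 24 genes called higher, 23 called lower and 7 not called.

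Among members whose mean log2 CPM reached 1, the 8 with the largest fold change towards the CD45 fraction included Rab44, Rab20, Rab32 and Rab27a, known from phagosomes, lysosome-related organelles or secretory granules. Below that limit Rab19 had 4.27, Rab9b -5.08, Rab3b -3.83, Rab27b -2.46 and Rab40b -2.10. Rab44, a large atypical Rab described in mast cells and osteoclasts (chr17:29114145-29148980, plus strand), lay at 0.621, 1.16 and 1.80 CPM (lowest, median and highest of 7) in the flow-through. In the CD45 libraries it lay at 85.7, 129 and 264 CPM, a log2 fold change of 7.20 (SE 0.39). Its CD45 values spread widely within each genotype, with 129, 119 and 262 CPM in the WT libraries and 85.7, 104, 264 and 208 CPM in the KO libraries. The neutrophil marker sums of the same libraries were 12372, 9711 and 13256 CPM in WT and 7015, 8645, 12051 and 11852 CPM in KO. WT replicate 1 had a higher neutrophil sum than KO replicate 3, but a lower Rab44. Lymphocyte marker sums were 32.982, 28.064 and 53.363 CPM in WT and 34.987, 28.43, 49.575 and 53.586 CPM in KO. WT replicate 3 and KO replicates 3 and 4 had the highest values of both Rab44 and the lymphocyte sum. These libraries also had the lowest monocyte and macrophage sums, at 6046, 10244 and 9432 CPM, against 11223 to 11464 CPM in the others. The part of neutrophil, lymphocyte, monocyte or other cell content in the spread of Rab44 was not tested.

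Rab20, which acts in phagosome maturation in macrophages (chr8:11453518-11478710, minus strand), was at 1.68, 2.36 and 3.02 CPM in the flow-through (lowest, median and highest of 7). In the CD45 libraries it reached 142, 219 and 348 CPM, a log2 fold change of 6.59 (SE 0.20). A share of 25.6% of its exonic bases overlaps a gene on the opposite strand, and the strand setting of the counting is not given in the sources used here, so its level is uncertain. Rab32, known from lysosome-related organelles and defence against intracellular bacteria (chr10:10545002-10558265, minus strand), went from 3.06, 3.28 and 4.23 CPM to 212, 273 and 306 CPM, a log2 fold change of 6.26 (SE 0.13). For both genes every CD45 library lay far above every flow-through library.

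Rab27a, which docks secretory granules at the plasma membrane, was at 1.93, 2.25 and 3.75 CPM in the flow-through and at 58.9, 70.1 and 84.5 CPM in the CD45 libraries (4.78, SE 0.15). Rab7b, which moves cargo from late endosomes to the trans-Golgi network, was at 7.48, 10.2 and 11.2 CPM against 179, 198 and 206 CPM (4.29, SE 0.09). Its CD45 values spanned a narrow range, unlike those of Rab44. Rab39, linked to phagosome acidification and autophagy in macrophages, was at 0.349, 0.680 and 0.922 CPM against 7.78, 10.1 and 12.9 CPM (3.93, SE 0.21). Rab8b, an exocytic Rab, was already well expressed in the flow-through at 41.6, 62.3 and 65.9 CPM and reached 463, 513 and 601 CPM in the CD45 libraries (3.16, SE 0.10). Rab43, a Golgi Rab, was at 0.233, 0.811 and 0.987 CPM against 5.40, 6.33 and 8.07 CPM (3.10, SE 0.22), and 75.4% of its exonic bases overlap another gene on the same strand. For all 8 genes the ranges of the fractions were disjoint.

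Under the same limit, the 8 Rabs with the largest fold change towards the flow-through included Rab39b, Rab33a, Rab3c and Rab6b, known from neurons. Rab39b, a neuronal Rab mutated in human X-linked intellectual disability and parkinsonism (chrX:75572046-75578231, minus strand), was at 22.0, 28.4 and 32.6 CPM in the flow-through and at 0.124, 0.675 and 1.35 CPM in the CD45 libraries (-5.34, SE 0.23). Rab33a, which acts on Golgi-derived vesicles in growing axons (chrX:48519285-48530232, plus strand), was at 9.88, 12.3 and 13.4 CPM against 0.105, 0.611 and 1.30 CPM (-4.23, SE 0.23). Rab3c, a synaptic vesicle Rab, was at 7.98, 9.62 and 15.5 CPM against 0.204, 0.940 and 2.47 CPM (-3.52, SE 0.32). The 3 genes had low values in the CD45 libraries, which also held the neuron marker sums given above, and the part of neuron content in these values was not tested.

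Rab30, a Golgi Rab, was at 10.7, 15.4 and 16.6 CPM in the flow-through against 0.611, 1.05 and 2.11 CPM (-3.71, SE 0.19). Rab36, which binds an effector that positions late endosomes and lysosomes, was at 11.9, 15.2 and 18.5 CPM against 1.53, 1.69 and 3.04 CPM (-3.01, SE 0.15). Rab23, a repressor of Hedgehog signalling tied to cilia (chr1:33719887-33742564, plus strand), was at 36.3, 41.4 and 43.2 CPM against 6.25, 7.28 and 7.66 CPM (-2.51, SE 0.07). Rab23 had the smallest SE of these 8 genes. Rab6b, the neuronal form of the Golgi Rab6, was at 40.6, 50.8 and 88.8 CPM against 4.07, 8.33 and 17.0 CPM (-2.49, SE 0.26). Rab4a, a Rab of fast endosomal recycling, was at 15.9, 17.9 and 22.0 CPM against 3.53, 4.68 and 5.24 CPM (-2.00, SE 0.11). Adjusted p-values of the 16 genes ran from 1.42e-16 for Rab7b to 4.59e-07 for Rab6b. Of the 4 members on the X chromosome, Rab39b, Rab33a and Rab9b were lower in the CD45 fraction and Rab9 was not called.

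**Figure D2:**
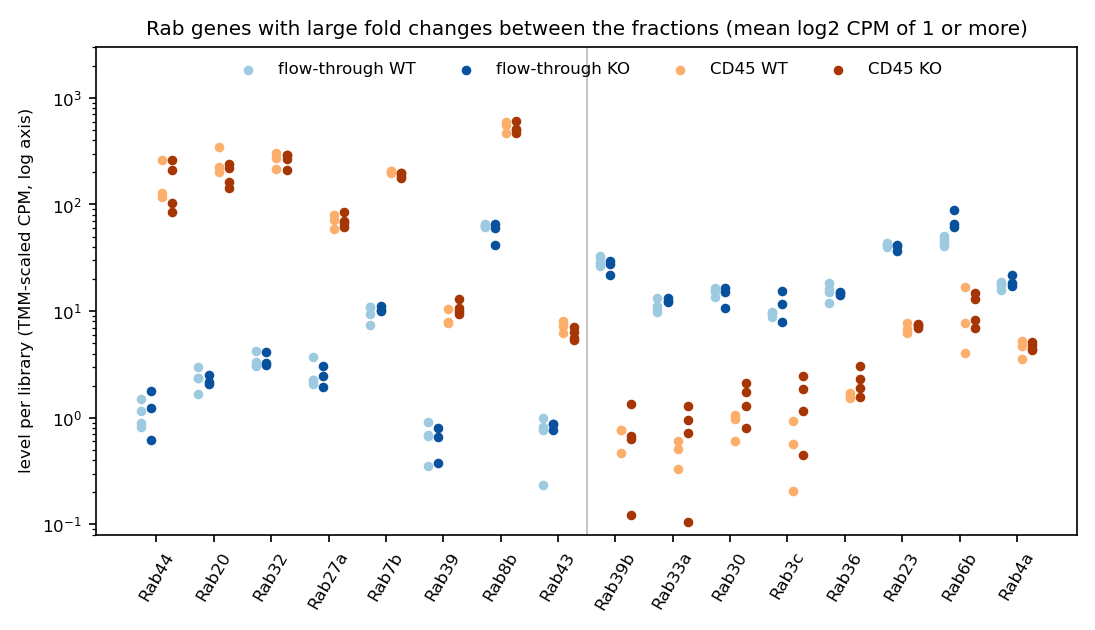
Level per library in TMM-scaled CPM (log axis) of the 8 Rab genes with the highest and the 8 with the lowest fold change between fractions, limited to genes whose mean log2 CPM reached 1. Each point is 1 library, colored by fraction and genotype, and for every gene the flow-through and CD45 points do not overlap, as for Rab32 at 3.06 to 4.23 against 212 to 306 CPM.

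The 180 bases upstream of the annotated start are shown for 3 of the genes highest and 3 of the genes lowest in the CD45 fraction, to set their base composition and simple promoter motifs side by side. The sequences are from the RefSeq promoter table for GRCm38.p6, read 5′ to 3′ on the gene's strand. They lie at chr8:11478711-11478890 (minus, Rab20), chr10:10558266-10558445 (minus, Rab32), chr9:73044630-73044809 (plus, Rab27a), chrX:75578232-75578411 (minus, Rab39b), chrX:48519105-48519284 (plus, Rab33a) and chr1:33719707-33719886 (plus, Rab23). The RefSeq start of Rab27a lies before the GENCODE gene used here, so that window ends short of the gene, and the bases after that start were not found at the head of its GENCODE transcripts. Capitals mark a match, on either strand, to GAGGAA (the core bound by the myeloid factor PU.1), GGGCGG (a GC box), CACGTG (an E-box, the same on both strands) or CCAAT (the CCAAT box).
Rab20: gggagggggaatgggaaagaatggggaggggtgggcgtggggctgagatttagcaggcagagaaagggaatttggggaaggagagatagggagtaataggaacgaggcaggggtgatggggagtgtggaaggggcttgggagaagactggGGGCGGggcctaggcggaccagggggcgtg
Rab32: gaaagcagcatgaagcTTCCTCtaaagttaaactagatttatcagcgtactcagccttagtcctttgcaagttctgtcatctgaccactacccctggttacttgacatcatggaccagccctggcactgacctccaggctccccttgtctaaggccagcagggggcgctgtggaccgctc
Rab27a: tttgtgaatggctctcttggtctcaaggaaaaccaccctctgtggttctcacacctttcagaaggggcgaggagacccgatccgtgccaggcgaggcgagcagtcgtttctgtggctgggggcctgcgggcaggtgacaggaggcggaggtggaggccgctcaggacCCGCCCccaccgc
Rab39b: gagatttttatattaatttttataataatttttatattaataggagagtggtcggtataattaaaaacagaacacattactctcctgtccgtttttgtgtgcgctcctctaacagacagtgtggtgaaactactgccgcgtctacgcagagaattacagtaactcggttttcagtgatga
Rab33a: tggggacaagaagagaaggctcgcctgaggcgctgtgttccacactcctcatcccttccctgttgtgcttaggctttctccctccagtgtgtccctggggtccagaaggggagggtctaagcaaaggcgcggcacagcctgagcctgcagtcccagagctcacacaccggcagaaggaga
Rab23: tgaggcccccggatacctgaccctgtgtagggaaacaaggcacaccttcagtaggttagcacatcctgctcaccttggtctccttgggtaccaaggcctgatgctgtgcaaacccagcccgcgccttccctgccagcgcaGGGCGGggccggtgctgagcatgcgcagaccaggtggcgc

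Rab32 holds GAGGAA, read on the opposite strand, and Rab20, Rab27a and Rab23 hold a GC box, so that motif occurs on both sides of the split. CACGTG and CCAAT are in none of the 6 windows. The upstream bases of Rab39b have a GC content of 35.6%, the lowest among members, against a median of 61.4% for members and 53.3% for all promoters of this length. The table has an entry for 47 members, and for 36 of them these 180 bases lie outside the annotated gene. Members' windows were taken at the most upstream start that allowed this, moved outside the annotated gene where needed. For all promoters the 180 bases next to the first listed start were taken, so members and all promoters were not handled alike. GAGGAA was found in 5.56% of the 36 (Rab32 and Rab33b) and in 17.1% of 27025 promoters, and the GC box in 61.1% against 30.5%. CCAAT was found in 36.1% against 28.2% and CACGTG in 5.56% (Rab21 and Rab5a) against 4.83%. A match is a description of these letters and not a binding site.

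Grouped by route, the early secretory Rabs were split. Rab1a and Rab1b, which carry cargo from the endoplasmic reticulum to the Golgi, were higher in the CD45 fraction at 1.31 (SE 0.10) and 0.77 (SE 0.07). Rab2a and Rab2b were lower at -0.19 (SE 0.08) and -1.03 (SE 0.06), and Rab6a was lower at -0.56 (SE 0.06). Among endosomal Rabs, Rab7 and Rab5c were higher at 1.76 (SE 0.06) and 1.39 (SE 0.06), whereas Rab5a was lower at -0.27 (SE 0.06). Rab11a, a recycling Rab, was higher at 0.76 (SE 0.09). Rab31, a Rab of the trans-Golgi and endosomes, had a log2 fold change of -0.11 (SE 0.06) and was not called. Among Rabs phosphorylated by the Parkinson's disease kinase LRRK2, 6 were taken for naming, with no claim to be all its substrates. Rab8a (1.81, SE 0.05), Rab8b, Rab35 (1.29, SE 0.05) and Rab29 (1.19, SE 0.14) were higher, and Rab10 (-0.87, SE 0.07) and Rab12 (-0.52, SE 0.07) were lower.

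The balance of close paralogues differed between the fractions in several groups, as seen in their share of the paralogue group's summed level per exon length. A change of share can also arise where all paralogues of a group move in the same direction. Rab39b made 97.5 ± 0.690% (SD, n = 7) of the Rab39 sum in the flow-through and 5.71 ± 2.97% in the CD45 fraction, where Rab39 made the rest. Rab33a made 52.3 ± 3.94% of the Rab33 sum in the flow-through and 6.43 ± 3.87% in the CD45 fraction. Both Rab33a and Rab33b were called lower in the CD45 fraction, at -4.23 and -0.17. Rab4b made 7.90 ± 1.71% and 42.8 ± 5.23% of the Rab4 sum, although 65.0% of its exonic bases overlap another gene on the same strand. In each of these groups the range of shares over libraries was disjoint between fractions.

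In the Rab3 group without Rab3a, Rab3d, a Rab of regulated secretion outside neurons, made 39.1 ± 5.21% in the flow-through and 95.1 ± 2.64% in the CD45 fraction. Rab8b went from 57.5 ± 4.26% to 77.2 ± 1.82% of the Rab8 sum, and Rab5c from 64.3 ± 1.78% to 80.4 ± 1.68% of the Rab5 sum. Rab7b went from 2.01 ± 0.235% to 10.7 ± 0.569% of the Rab7 sum, so Rab7 stayed the major form in both fractions. Rab27a and Rab6a were already the major forms in the flow-through, at 75.2 ± 10.1% and 86.3 ± 3.18%, and made 99.8 ± 0.179% and 96.0 ± 1.77% in the CD45 fraction. Reads of near-identical paralogues can be split between them by the counting, so shares of pairs such as Rab1a and Rab1b are uncertain.

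**Figure D3:**
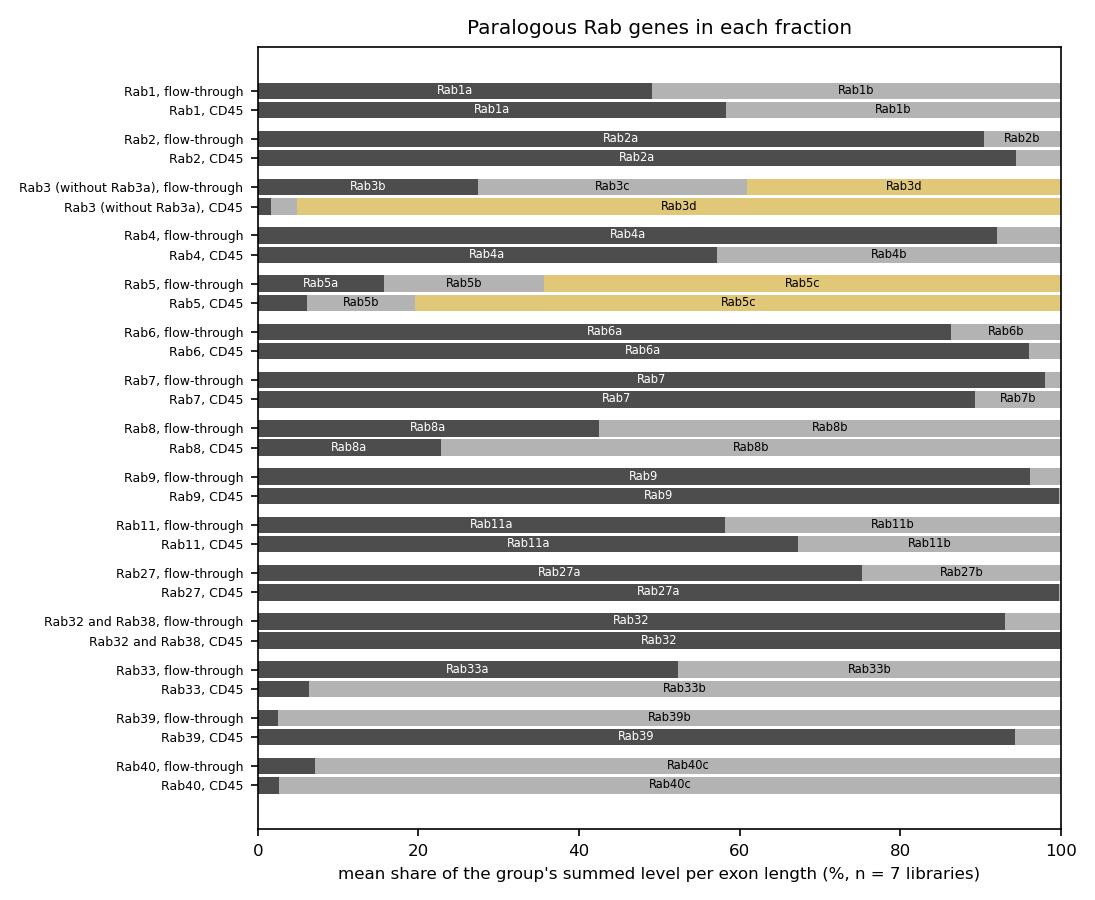
Mean share (x axis, %) of each paralogue in its group's summed level per exon length, in 7 flow-through and 7 CD45 libraries, 1 bar per group and fraction. The major form changes from Rab39b at 97.5% to Rab39 in the CD45 fraction. In the Rab3 group, whose sum leaves out Rab3a, Rab3d grows from 39.1 to 95.1%.

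Genes that act on Rabs were taken from 4 lists. The first held 11 genes for prenylation, membrane extraction or phosphorylation of Rabs, with Lrrk1, Lrrk2 and Ppm1h placed there for phosphorylation. Of these 11, 6 were higher and 1 lower in the CD45 fraction, where 41.4% of all genes were higher and 44.7% lower. Examples are the LRRK2-family kinase gene Lrrk1 (2.97, SE 0.08) and Gdi2, which extracts GDP-bound Rabs from membranes (1.22, SE 0.08). Of 37 exchange factors tested, 23 were higher and 10 lower, with a median of 0.56 against -0.05 over all genes, and they include Rin3, which acts on Rab5 (6.51, SE 0.15), and Rab3il1, which acts on Rab8 (5.14, SE 0.13). Of 35 GTPase activating proteins, 19 were higher and 12 lower, with Tbc1d9 at 3.43 (SE 0.11) and Evi5l at -2.44 (SE 0.07). Of 43 effectors, 16 were higher and 22 lower, with Sytl2, which binds Rab27, at -5.57 (SE 0.10) and Plekhm1, which binds Rab7, at 1.87 (SE 0.07). All these list counts and medians rest on TMM scaling. Upper-quartile scaling and library totals alone moved the median of all genes by -0.25 and -0.53, and they were not read for the lists.

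The genotype comparison in the flow-through asked how Rab expression outside the bead-retained cells differs between libraries labelled KO and WT. Of 52 members tested besides Rab15, Rab6b was called higher in KO, none was lower and 51 were not called. Of all 16546 genes tested, 1.57% were called, 1.42% higher and 0.151% lower. The 51 log2 fold changes not called lay between -0.24 and 0.45, and the median size over the 52 was 0.09 against 0.12 for all genes. KO and WT libraries did not overlap for Rab6b and Rab2b, that is 2 of 52 members against 11.4% of all genes.

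Rab15, which controls traffic from early endosomes to the recycling compartment (chr12:76797960-76822908, minus strand), was at 14.4, 10.8, 9.88 and 14.8 CPM in flow-through WT. In flow-through KO it was at 31.8, 32.7 and 27.7 CPM, above every WT library, with a log2 fold change of 1.29 (SE 0.14). In the CD45 fraction it was at 27.5, 26.8 and 18.0 CPM in WT. CD45 KO libraries were at 10.1, 15.7, 18.0 and 18.4 CPM, lower on average but overlapping WT, with a log2 fold change of -0.63 (SE 0.23). These opposite values are what singled Rab15 out, so no test is read from them. Averaged over genotypes, Rab15 had a fraction difference of -0.02 (SE 0.15).

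Rab6b, which serves retrograde transport at the Golgi of neurons (chr9:103111787-103185276, plus strand), was at 43.8, 40.6, 46.7 and 50.8 CPM in flow-through WT. In flow-through KO it was at 88.8, 65.1 and 62.0 CPM, and all 3 lay above the highest WT library. The log2 fold change was 0.65 (SE 0.13, adjusted p = 0.0199). It passed in 8 of 15 alternative analyses, with adjusted p from 1.63e-08 to 0.962 over the 15. Without KO replicate 1, the highest library, the fold change was 0.47 and the adjusted p 0.0767, and it was also lost without WT replicate 1, 2 or 3 (0.0693, 0.0794 and 0.0615) with a GC and length trend removed (0.0529) and in the joint fit of 14 libraries (0.915). In the CD45 fraction the KO against WT value of Rab6b was 0.18 (SE 0.47), and its difference of KO effects between fractions was 0.49 (SE 0.50, adjusted p = 0.844).

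Neuron markers summed higher beside Rab6b and Rab15 in flow-through KO, but not every marker did so. The 18 markers, none at 0, summed to 1010 to 1152 CPM in WT and to 1275 to 1729 CPM in KO, and 5 were called higher (among them Slc17a7, the vesicular glutamate transporter, at 1.19, SE 0.21) and 1 lower (Gad2, an enzyme of GABA synthesis, at -0.42, SE 0.10). Fold changes were positive in 14 of the 18. The largest was that of Camk2a, not called, at 1.81 (SE 0.34), with group means of 72.6 CPM in WT and 256 CPM in KO. Map2, the most abundant of the 18, was at 0.05 (SE 0.11), and Tubb3 was at -0.23 (SE 0.12), neither called. The sum thus leans on a part of the markers and is not a measure of neuron content. The 8 neuroblast markers had negative fold changes, none called, and summed to 827 to 1033 CPM in WT and to 583 to 785 CPM in KO. KO replicate 1 had the highest neuron marker sum and the highest Rab6b. KO replicate 3 stood apart in base composition, its log2 values rising by 0.20 per 10% of GC content against -0.09 to 0.02 in the other 6 flow-through libraries. The genes called higher in KO were GC-rich, with a median of 56.9% where all tested genes had 49.6%, and Rab15 stood at 55.3% and Rab6b at 51.4%. Without KO replicate 3 Rab6b was at 0.75 (adjusted p = 0.00821), while its call was lost with a GC and length trend removed, as given above. The part of neuron or neuroblast content, or of base composition, in the Rab6b and Rab15 values was not tested.

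**Figure D4:**
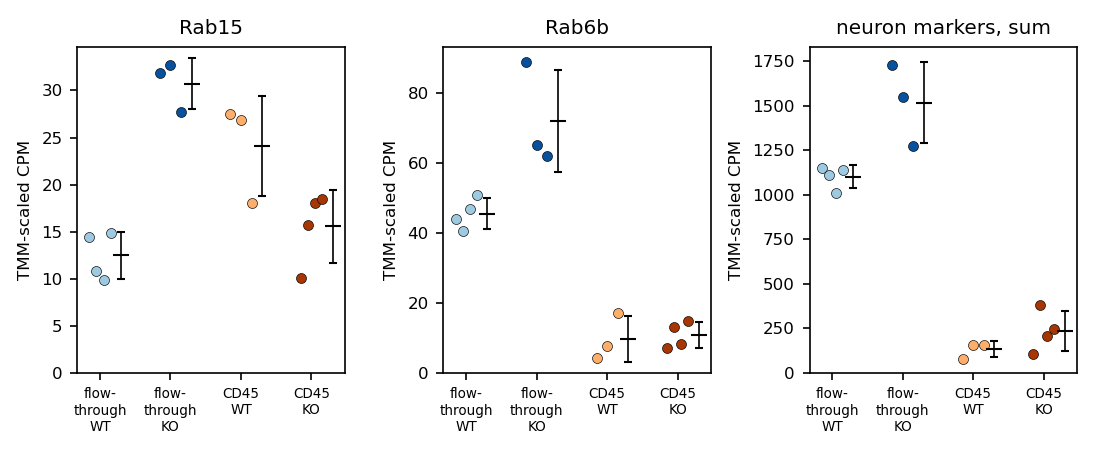
TMM-scaled CPM per library (y axes, from 0) of Rab15, Rab6b and the sum of 18 neuron markers in the 4 groups, with group mean and SD beside the points. Flow-through KO lies above flow-through WT in all 3 panels, and Rab15 is lower on average in CD45 KO, where it overlaps WT.

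The remaining members singled out by smallest p in the flow-through were not called. Rab2b was at 35.1, 31.7, 33.4 and 31.7 CPM in WT and at 29.7, 30.7 and 29.7 CPM in KO (-0.15, SE 0.09, adjusted p = 0.578). These groups do not overlap, although 64.0% of the exonic bases of Rab2b lie opposite another gene. Rab3c had a value of 0.30 (SE 0.18, adjusted p = 0.616), with KO libraries from 7.98 to 15.5 CPM around the WT mean of 9.47 ± 0.492 CPM (SD, n = 4). Rab39b had -0.18 (SE 0.12, adjusted p = 0.636). None of the 8 genes highest in the CD45 fraction was called between genotypes in the flow-through.

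Among genes that act on Rabs, none of 11 prenylation, extraction and phosphorylation genes and none of 36 exchange factors was called in the flow-through. Of 34 GTPase activating proteins, Tbc1d9b (0.58, SE 0.10, adjusted p = 0.00798) and Sgsm2 (0.48, SE 0.10, adjusted p = 0.0322) were higher in KO. Of 43 effectors 4 were higher and none lower, where 1.42% of all genes were called higher. Rph3a, a Rab3 and Rab27 effector on synaptic vesicles, was at 65.1 ± 2.44 CPM in WT (SD, n = 4) and at 126 ± 6.79 CPM in KO (SD, n = 3), which is 0.94 on the log2 scale (SE 0.08, adjusted p = 0.000283). Rims1, a Rab3 effector of the presynaptic active zone, went from 49.3 ± 0.635 to 110 ± 18.9 CPM (1.15, SE 0.11, adjusted p = 0.000371). Myrip, which links Rab27 to myosin, and Rims2, a relative of Rims1, were at 0.75 (SE 0.12, adjusted p = 0.00677) and 0.51 (SE 0.10, adjusted p = 0.0173). Over the 43 effectors the median was 0.04 against -0.01 over all genes. Alternative analyses were not read for these genes that act on Rabs. Over all genes the flow-through calls fell from 260 to 181 with a GC and length trend removed and to 30 in the joint fit. With the left-out library entered as labelled they fell to 0. Rph3a, Rims1 and Rims2 are known from synapses, the neuron marker sum above was also higher in KO, and its part in these values was not tested.

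In the CD45 fraction no Rab differed between genotypes at the threshold. Of 48 members tested besides Rab15, none was called by edgeR, 1 had an unadjusted p under 0.05 (Rab9), and DESeq2 called none. Of all 15660 genes tested, 0.0% were called, with 693 at an unadjusted p under 0.05 and 5 called by DESeq2. Rab9, which returns cargo from late endosomes to the trans-Golgi network, was at 34.7, 29.6 and 47.4 CPM in WT and at 25.9, 27.3, 30.8 and 31.3 CPM in KO (-0.36, SE 0.16, adjusted p = 0.974). WT replicate 3 carried the highest Rab9 value, and the groups overlap. Its log2 values rose by 0.16 per 10% of GC content, against -0.08 to 0.06 in the other CD45 libraries. Its monocyte and macrophage markers summed to 6046 CPM, against 11416 and 11464 CPM in WT replicates 1 and 2. The part of these traits in the Rab9 values was not tested. Rab39 was at 7.99, 10.4 and 7.78 CPM in WT and at 12.9, 10.8, 10.1 and 9.33 CPM in KO (0.32, SE 0.18).

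Rab3c and Rab30 had log2 fold changes of 1.36 (SE 0.65) and 0.74 (SE 0.42) in the CD45 fraction, on levels of at most 2.47 and 2.11 CPM. Neuron markers had a positive fold change in 17 of 18 cases there, none called, and summed to 79.9 to 158 CPM in WT and 104 to 381 CPM in KO. The groups of Rab2b and Rab5b did not overlap, that is 2 of 48 members besides Rab15 against 5.24% of all genes. Rab2b was at 14.5, 14.9 and 14.0 CPM in WT and 16.2, 16.8, 16.1 and 16.4 CPM in KO (0.19, SE 0.11). Rab5b, an early endosome Rab, was at 145, 135.9 and 151 CPM in WT and 135.6, 134, 129 and 135 CPM in KO, so the ranges barely part. None of the lists of genes that act on Rabs had a called member in the CD45 fraction.

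**Figure D5:**
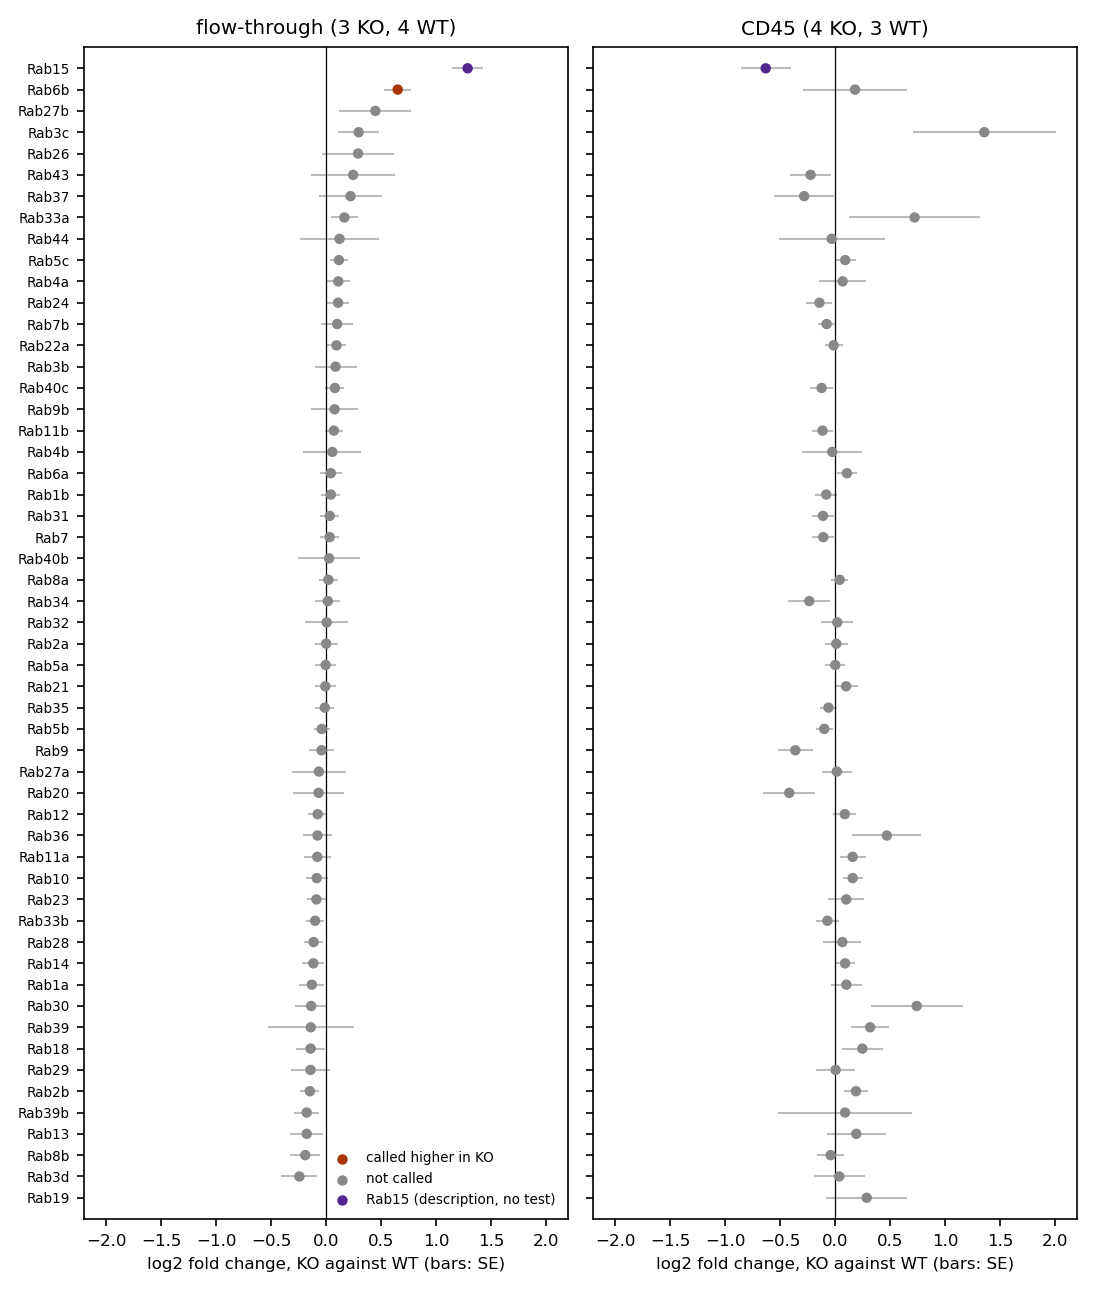
Log2 fold change, KO against WT (x axes, bars giving the SE), of each Rab gene in the flow-through and in the CD45 fraction, ordered by the flow-through value. In the flow-through Rab6b is called at 0.65, Rab15 is shown as a description at 1.29, and the other 51 lie between -0.24 and 0.45, while in the CD45 fraction no gene is called.

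The difference of the KO effects between fractions was tested over 18098 genes. Of 53 members tested besides Rab15 none was called by edgeR, and 3 had an unadjusted p under 0.05 (1305 of all genes), with 0.0% of all genes called. DESeq2 called 45 genes and none of these members. Rab9b, a brain-enriched relative of Rab9, had the smallest p of these (-3.74, SE 0.93, adjusted p = 0.373). It had 0, 0 and 1 counts in CD45 WT and 5, 10, 1 and 5 counts in CD45 KO, so its fitted value depends on the count added by the model. Rab2b (-0.32, SE 0.12, adjusted p = 0.664), Rab30 (-0.83, SE 0.37, adjusted p = 0.675) and Rab36 (-0.52, SE 0.30, adjusted p = 0.743) were also not called.

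At the low end, Rab17, Rab25, Rab38 and Rab42 entered no test, with at most 17 counts and 0.637 CPM in any library. Rab17 and Rab25 are Rabs of polarized epithelia, and Rab38 is a melanosome Rab related to Rab32. Rab19 passed the filter in the CD45 fit alone, and Rab26, Rab27b, Rab3b, Rab40b and Rab9b in the flow-through fit alone. Rab19 was at 0.799 to 1.85 CPM in the CD45 libraries against at most 0.197 CPM in the flow-through. Exons of 9 members overlap another gene by more than 10%, so the levels of Rab2b, Rab4b, Rab6a, Rab20, Rab24, Rab26, Rab33b, Rab39b and Rab43 are uncertain to that extent.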

How the data were processed

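Bulk RNA was sequenced from mouse cortex with a stranded mRNA kit, per the labels' protocols. The authors deposited whole-number counts per gene, not normalized, in 1 table per fraction, and these were used. Trim Galore, FastQC, STAR 2.7.9a, DESeq2 and the build GRCm38 are named in the submitters' processing notes. How reads were counted, with or without strand, is not given in the sources used here, nor is the annotation release. Of 33223 genes, 33113 were matched to GENCODE M21 for names, positions and exon length.

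Groups follow the labels. Replicate numbers were given in accession order, so they pair nothing. The labels name no animals and no batch, so p-values reflect only how these samples spread, in part perhaps for technical reasons, and the fractions may share animals. A chi-square test of counts found every one of 18 same-group pairs to differ beyond sampling noise (10.2 to 55.2 per degree of freedom over genes with 20 counts or more). No library was therefore taken for a re-sequencing of another. The test cannot tell whether libraries of a group came from the same animal. The test was the robust quasi-likelihood one of edgeR 4.0.16 in R 4.3.3, after TMM scaling and filterByExpr (minimum count 10, total 15), with Benjamini-Hochberg adjustment over all genes tested and a threshold of 0.05. The SE is the log2 fold change over the root of F. Genotypes were compared within a fraction, and fractions and the difference of KO effects over 14 libraries with 1 mean per group. The fits were tested on simulated data. Alternatives were other scalings, no filter, DESeq2 1.42.0, GC and length offsets with splines of 4 degrees of freedom, each library left out, the left-out library entered as labelled, and a joint fit. Library totals alone was added after the data were seen. RPKM is scaled CPM over union exon length. A depth of 11574414 to 31337948 counts per library limits precision.

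The members and lists were chosen with earlier results of these data known. Values per library are given for Rab15, for called members (for the fractions the 8 highest and 8 lowest fold changes with mean log2 CPM of at least 1) and, with fewer than 5 called, for the 5 smallest p. Other members may be named with levels, and from each list up to 4 called genes by smallest p. Rab5b, and the members listed by route, were named after their values were seen.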

Additional observations from a re-analysis of the deposited data

Results flagged for a closer look

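Rab27a in flow-through WT replicate 4 stood far from the other 3 libraries of its group, at 3.75 CPM against 2.09 to 2.25 CPM. Of 40 groups of members' values looked at, 1 was picked out, and chance alone picks about 1 in 20.

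The library labelled flow-through WT replicate 5, which entered no comparison, had values far above the flow-through WT range for the Rabs highest in the CD45 fraction. In plain CPM it had 76.2 for Rab44 against 0.984 to 1.85 in the 4 flow-through WT libraries. Rab20 was at 176 against 2.07 to 3.70, and Rab32 at 241 against 3.74 to 5.11.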

How the results depend on the processing

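No paired analysis was possible because the replicate numbers were given in accession order and pair nothing. The count of members called between the fractions was 47 and stayed between 45 and 52 under all 23 alternatives. The count of 2 in the flow-through (Rab6b, and Rab15, from which no test is read) fell to 1 with the GC and length trend removed and with the joint fit of 14 libraries, and to 0 with the left-out library entered as labelled. Leaving out 1 library gave 1 to 2 calls. In the same comparison over all genes, 260 were called, against 629 with no filter, 416 with DESeq2, 181 with the GC and length trend removed, 30 with the joint fit and 0 with the left-out library as labelled. With that library as labelled, Rab2b turned to 0.016 and Rab39b to 0.13, neither called, The count of 0 in the difference of KO effects became 1 with no filter and 1 with DESeq2, and 0 to 1 when 1 library was left out (1 without CD45 KO replicate 1 and without CD45 WT replicate 3). Each such call was Rab15, from which no test is read. The cause of these changes was not tested. In the CD45 fraction the count stayed at 0 in all 14 alternatives. Depth limits what can be said of the 4 members with at most 17 counts and of neuronal Rabs in the CD45 libraries.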
